A study of Mus musculus with 5 samples.

Results

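The outermost ring of spots in 3 sections of infarcted neonatal mouse hearts was compared with the spots inside it. On the Visium slides used, RNA of a tissue section is caught on spots set in a hexagonal grid, so that a spot inside the tissue has 6 neighbours and a spot at its rim has fewer. Edge spots were those with 1 to 5 other spots within 1.25 times the median spot spacing, interior spots those with 6, and both needed at least 1000 raw UMIs (unique molecular identifiers, which count captured RNA molecules). This gave 327 edge spots and 1506 interior spots of the 1860 spots in the MI sections, in a series of 3364 spots. The edge held 74 spots of the section taken 3 days after myocardial infarction (MI), and 97 and 156 spots of replicates 1 and 2 taken 7 days after it. The hearts were wild type, C57BL/6, with MI surgery at postnatal day 1, and each section was cut 200 µm below the ligation suture. Sham sections of the same strain and genotype, 1 at day 3 and 1 at day 7, had 208 edge and 1295 interior spots and serve here only for comparison. The day 7 MI sections are independent biological replicates by the study's account. Each other group is 1 biological sample, so the 3 MI sections mix both times. In the limma tests below, standard errors (SE) and p-values rest on the spread among these sections, moderated by that of all genes tested.

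The wall of the heart is layered. Outside lies the epicardium, a sheet of mesothelial cells that carries matrix-making cells beneath it and that responds to cardiac injury, then the compact myocardium, and toward the chambers the trabecular myocardium with the fibres of the conduction system under the endocardium. The rim of a transverse section therefore samples the outer heart surface, and, where the chambers are open, their lining.

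Edge spots were somewhat shallower than interior spots. Median raw UMIs of edge spots were 29510, 51032 and 19127 in MI day 3, MI day 7 replicate 1 and MI day 7 replicate 2, which is the order kept for 3 values throughout. Interior medians were 35690, 54289 and 21305, so the edge had 0.827, 0.940 and 0.898 times the interior median. A spot with no neighbour counts in neither class, which left out 10, 5 and 6 stray spots. Values below are CPM, a spot's deposited values scaled to a common total of 1000000, over the 13711 genes listed in all 5 sections and averaged over the spots of a class. Since a spot covers several cells, fewer cells of a type and less RNA per cell cannot be told apart.

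**Figure D1:**
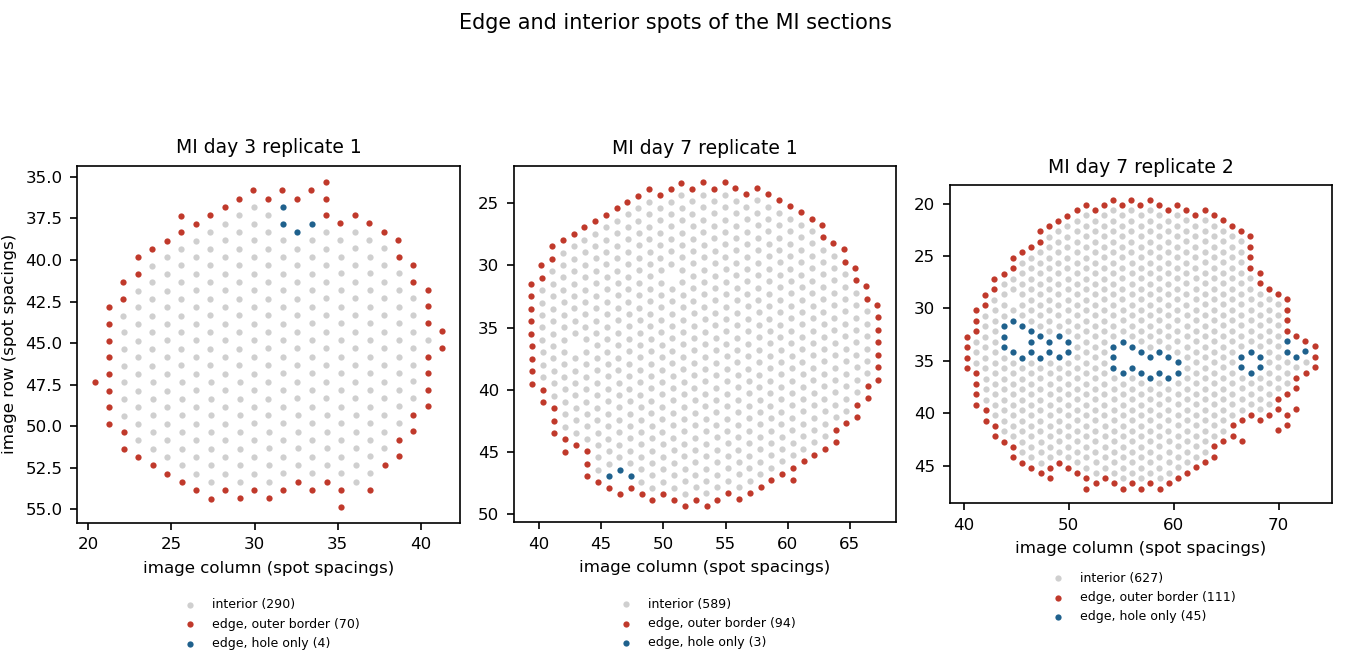
Position of spots in the 3 MI sections, in units of the median spot spacing along image columns and rows, with interior spots in grey, edge spots on the outer border in red and edge spots that border only a hole in blue. The outer border holds 70, 94 and 111 edge spots, and MI day 7 replicate 2 is the section with large holes, bordered by 45 spots.

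The rim was checked first with the cell type scores deposited for each spot, which estimate the share of 11 cell types by integration with single-nucleus data. The scores are drawn from the same expression values as the genes below, so they are a description and not separate evidence. The epicardial score (EPI) averaged 9.58, 4.23 and 6.44% over edge spots and 0.0880, 0.0501 and 0.299% over interior spots. It was thus higher at the edge in 3 of 3 sections, by 6.601 ± 2.688 percentage points (SD, n = 3, two-sided exact permutation test p = 0.25, the smallest p that 3 sections allow). Few edge spots carried this signal. The score was above 0 in 15 of 74, 24 of 97 and 21 of 156 edge spots. These shares are 20.3% (exact 95% Clopper-Pearson interval 11.8 to 31.2), 24.7% (16.5 to 34.5) and 13.5% (8.53 to 19.8). Inside, 2.41% (0.976 to 4.91), 3.06% (1.82 to 4.79) and 1.44% (0.658 to 2.71) of spots had a score above 0. Intervals cover counting error only. EPI was the leading score in 8, 6 and 13 edge spots, and in 2 interior spots, both in MI day 7 replicate 2.

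Most edge spots were scored as myocardium. Summed over the cardiomyocyte states CM1 to CM5, the score exceeded 0.5 in 73.0, 79.4 and 67.3% of edge spots and in 69.7, 61.0 and 78.5% of interior spots, so neither class led in every section. CM1 was higher at the edge by 16.3, 30.7 and 1.08 percentage points. CM4, the state that the study calls regenerative, was lower by 7.36, 10.1 and 3.07 points at the edge, and CM5 by 6.44, 3.69 and 5.19 points. The endothelial score (EC) was lower by 2.32, 8.16 and 3.92 points. Each of these differences had 1 direction in 3 of 3 sections, with an exact permutation p of 0.25. Fibroblast, endocardial, macrophage, CM2, CM3 and pericyte scores changed direction between sections. Tnnt2, the cardiac troponin T gene that marks cardiomyocytes, was at 5029, 4709 and 4550 CPM at the edge and at 5243, 4773 and 5282 CPM inside.

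**Figure D2:**
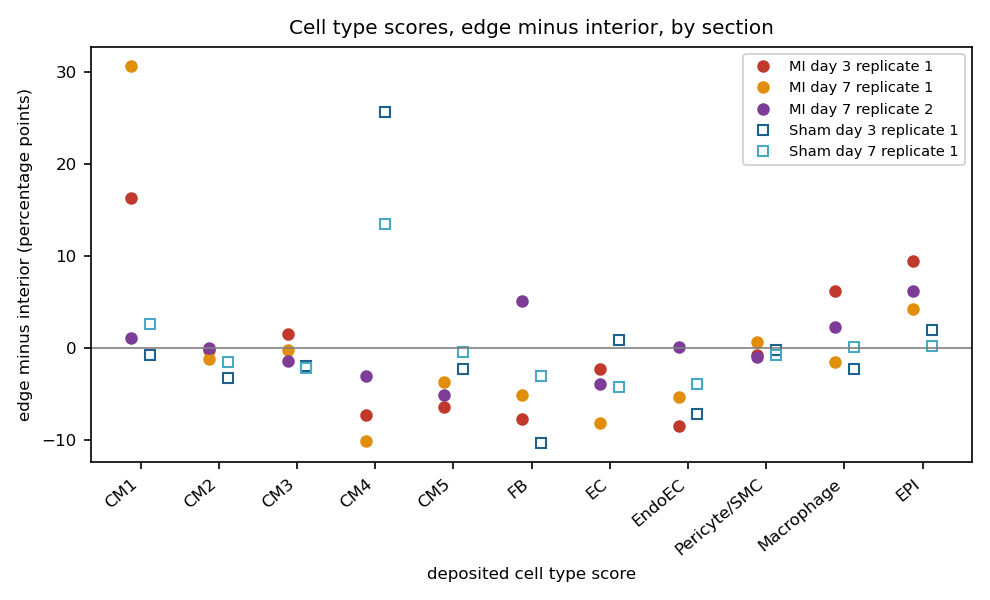
Difference of the mean deposited score between edge and interior spots, in percentage points, for each of 11 cell types, with 1 filled circle for each MI section and 1 open square for each sham section. EPI lies above 0 in every section, and CM4 lies below 0 in the 3 MI sections and above 0 in the 2 sham sections.

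Across the transcriptome, genes that were higher at the edge of MI sections included C3, Cma1 and members of the epicardial, red cell and mitochondrially encoded lists, and genes that were lower included Gm15543, Irx3, Pi16 and Nppa. Of 12827 genes tested with limma, with the section as a block, 48 were higher at the edge (0.374%) and 34 lower (0.265%) at an adjusted p below 0.05. At an unadjusted p below 0.05 there were 373 and 1957. In all 3 sections 740 genes (5.77%) were higher and 4791 (37.4%) lower. The median over all genes was -0.12 on the log2(CPM + 1) scale, and mitochondrially encoded genes took 16.3, 29.1 and 17.6% of edge values against 13.1, 23.6 and 14.7% of interior values. With median-of-ratios scaling, which brought the median to -0.00, 100 genes were higher and 17 lower, so that 85.5% of called genes were higher in place of 58.5%. The number called rests on single sections. Without MI day 3 it was 7 higher and 0 lower, without MI day 7 replicate 1 it was 109 and 28, and without MI day 7 replicate 2 it was 104 and 513. The 7 were C3, Msln, Cma1, Col6a5, Lrtm1, Dlk1 and Hbb-bt.

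The largest rises by the naming rule were those of C3, Msln and Cma1. C3 (chromosome 17, 57203970 to 57228136, GRCm38), the central component of complement, was at 179, 39.8 and 325 CPM at the edge and at 21.7, 1.85 and 30.0 CPM inside. Edge values were 8.25, 21.5 and 10.8 times the interior ones. This is a log2 difference of 3.41, with SE 0.14 and a limma adjusted p of 4.04e-07. Msln (chromosome 17, 25748613 to 25754378), the mesothelial surface protein mesothelin, was at 45.5, 12.7 and 20.7 CPM at the edge and at 7.66, 0.658 and 2.27 CPM inside, a rise of 2.73 (SE 0.18, limma adjusted p 4.13e-05). For both genes the difference exceeded its spread between sections, while the levels of the sections themselves varied widely. Of the 22 epicardial and mesothelial markers listed, 12 were in all tables, and 5 of these 12 rose and 0 fell. These were Msln, Rspo1, a secreted Wnt pathway activator (2.15, limma adjusted p 0.00423), Efemp1, a fibulin of the matrix (1.76, 0.0184), Gpm6a, a membrane glycoprotein (1.63, 0.00753), and Krt19, an epithelial keratin (1.23, 0.0102). Of the 12, 6 were higher and 1 lower in all 3 sections, beside 5.77 and 37.4% of all genes. The list had a median of 0.76 beside -0.12 for all genes, and of 0.88 beside -0.00 under median-of-ratios scaling. Single sections moved these values. Of the 12, 1 passed without MI day 3, with a list median of 1.20, and without MI day 7 replicate 2, 5 rose and 1 fell, with a list median of 0.47. Wt1, the epicardial transcription factor, was at 20.04, 7.74 and 22.4 CPM at the edge and at 11.41, 11.004 and 11.80 CPM inside, and did not pass (limma adjusted p 0.365).

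No list was made for complement or for mast cells, and the genes named here are single genes. The macrophage and immune list held genes of the first complement component. Of these, C1qa was called higher against the next layer described below, but not against the interior. C1s1, which encodes a protease of the first complement component, rose by 1.62 (SE 0.23, limma adjusted p 0.00869), from 6.83, 5.77 and 11.1 CPM inside to 20.8, 11.8 and 66.0 CPM at the edge. Its value is uncertain, since C1s2 is a near-identical copy. C2, a component of the classical pathway that the naming rule did not give and that was picked after its values were seen, rose by 1.71 (limma adjusted p 0.00869). Cma1 (chromosome 14, 55941451 to 55944675), the chymase of connective tissue mast cells, rose by 2.25 (SE 0.30, limma adjusted p 0.00597). Its level was 6.26, 30.4 and 17.5 CPM at the edge and 2.43, 2.97 and 1.89 CPM inside. Few spots carried it, with a value above 0 in 10.8, 27.8 and 3.21% of edge spots and in 5.86, 7.64 and 2.71% of interior spots, and in MI day 7 replicate 2 the highest edge spot was at 1803 CPM. Tpsb2, a mast cell tryptase likewise picked after its values were seen, was at 3.13, 9.05 and 10.3 CPM against 0.398, 1.78 and 1.25 CPM (1.91, limma adjusted p 0.00423). Mgst1, a membrane glutathione transferase, rose by 1.39 (limma adjusted p 0.00423).

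Of the 24 fibroblast and matrix genes, 3 rose. Col1a1, a chain of type I collagen, was at 1510, 1074 and 2098 CPM at the edge and at 1159, 782 and 1086 CPM inside (0.60, SE 0.09, limma adjusted p 0.0139). Col1a2 and Col3a1 rose by 0.51 and 0.49. In this comparison 0 members of the list fell, and its median was 0.10 beside -0.12 for all genes. These counts moved when a section was left out and when interior spots were chosen by their raw UMIs. Without MI day 3, 0 rose in limma, without MI day 7 replicate 2, 3 rose and 6 fell with a median of -0.09, and with interior spots matched on raw UMIs, 3 rose and 2 fell with a median of -0.06. Dcn, the proteoglycan decorin of most fibroblasts, had a difference of 0.08 (limma adjusted p 0.733) and was higher at the edge in 2 sections and lower in the other. Col6a5 and Col6a6, chains of type VI collagen, rose by 2.15 (limma adjusted p 0.000473) and 1.04 (limma adjusted p 0.0101). Their smallest rises under the alternative settings were 0.30 and 0.39. In MI day 7 replicate 1 Col6a5 rested on few spots, with a value above 0 in 5.15% of edge spots. Gpc3, a cell surface glypican, rose by 0.92 (SE 0.09, limma adjusted p 0.00126), from 48.1, 30.3 and 34.1 CPM to 88.3, 55.1 and 72.3 CPM. Capn6, of the calpain family, rose by 1.08 (limma adjusted p 0.0454).

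A few macrophage genes were higher in the mean over edge spots. Lyz2, the lysozyme of myeloid cells, was at 1168, 102 and 318 CPM at the edge and at 552, 78.4 and 102 CPM inside (1.03, SE 0.16, limma adjusted p 0.0156). The chemokine genes Ccl6 and Ccl9 rose by 1.74 (limma adjusted p 0.0288) and 1.24 (limma adjusted p 0.0454), and Clec4n, a C-type lectin receptor, by 0.99 (limma adjusted p 0.0432). Of 19 myeloid and immune genes measured, 3 rose (Lyz2, the scavenger receptor Mrc1 and the growth factor receptor Csf1r) and 0 fell. In all 3 sections 10 of the 19 were higher, beside 5.77% of all genes. The median of the 19 was 0.59 beside -0.12 for all genes. Without MI day 3, 0 of the 19 passed in limma, without MI day 7 replicate 1, 11 rose with a median of 0.91, and without MI day 7 replicate 2, 7 rose with a median of 0.25. The macrophage score was higher at the edge by 6.16 and 2.21 points in MI day 3 and MI day 7 replicate 2 and lower by 1.52 points in MI day 7 replicate 1. A minority of spots carried this. Median Lyz2 over edge spots was 143, 56.4 and 48.2 CPM against 178, 54.8 and 46.5 CPM inside, while the highest edge spots reached 17415, 2417 and 5068 CPM. Among spots whose summed cardiomyocyte score exceeded 0.5, Lyz2 was lower by a difference that did not pass (-0.07, limma adjusted p 0.703), Ccl6 differed by 0.19 (limma adjusted p 0.601), and the list's median was -0.09 beside -0.15 for all genes. In the remaining edge spots Lyz2 was at 3821, 227 and 876 CPM. The scores are fractions drawn from the same values, so a cardiomyocyte score above 0.5 by itself leaves out spots with a high macrophage score. Which spots carry the rise therefore cannot be read from this filter.

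Red cell genes were higher at the edge as well. Hba-a1, an alpha globin gene, was at 4697, 3235 and 6474 CPM at the edge and at 3138, 2115 and 2793 CPM inside (0.80, SE 0.10, limma adjusted p 0.00423). Of 9 erythroid genes, 5 rose, namely 4 globin genes and Alas2, the first enzyme of haem synthesis in red cells, and 0 fell. Leaving out MI day 3 left 1 of the 9 past the threshold. Globin genes of 1 cluster are nearly identical, and how reads were split among them is uncertain. Globin RNA took 1.49, 1.19 and 1.78% of edge values and 1.05, 0.803 and 0.873% of interior values. Mitochondrially encoded genes formed the other group of this kind. Of 13 measured, 5 rose and 0 fell, with a median of 0.31, and mt-Co2, a subunit of cytochrome oxidase, rose by 0.51 (SE 0.06, limma adjusted p 0.00423), from 10853, 18761 and 10772 CPM to 15969, 26263 and 15073 CPM. The count of 5 moved widely, to 0 in limma without MI day 3 or without MI day 7 replicate 1, to 12 without MI day 7 replicate 2 or with interior spots matched on raw UMIs, and to 11 with the outer border only. For the 79 nuclear-encoded respiratory chain genes, 0 passed in either direction in limma and the median of -0.12 equalled that of all genes. Of these 79, 7 were lower without MI day 7 replicate 2, 9 with interior spots matched on raw UMIs and 12 among spots with a cardiomyocyte score above 0.5.

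Lrtm1 and Dlk1 rose at the rim too. Lrtm1 (chromosome 14, 29018208 to 29033645), which encodes a membrane protein with leucine-rich repeats, was at 29.9, 106 and 61.9 CPM at the edge and at 10.0, 51.1 and 31.3 CPM inside (1.16, SE 0.11, limma adjusted p 0.00126). Dlk1, a membrane protein of the Notch ligand family expressed in fetal tissue, was at 69.1, 70.6 and 29.1 CPM against 41.7, 24.7 and 12.5 CPM (1.12, SE 0.13, limma adjusted p 0.00409). Hey2, the transcription factor known from the compact myocardium, was picked after its values were seen. It was at 50.4, 16.5 and 17.3 CPM at the edge and at 32.4, 10.8 and 12.3 CPM inside, and did not pass (0.55, limma adjusted p 0.0693).

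**Figure D3:**
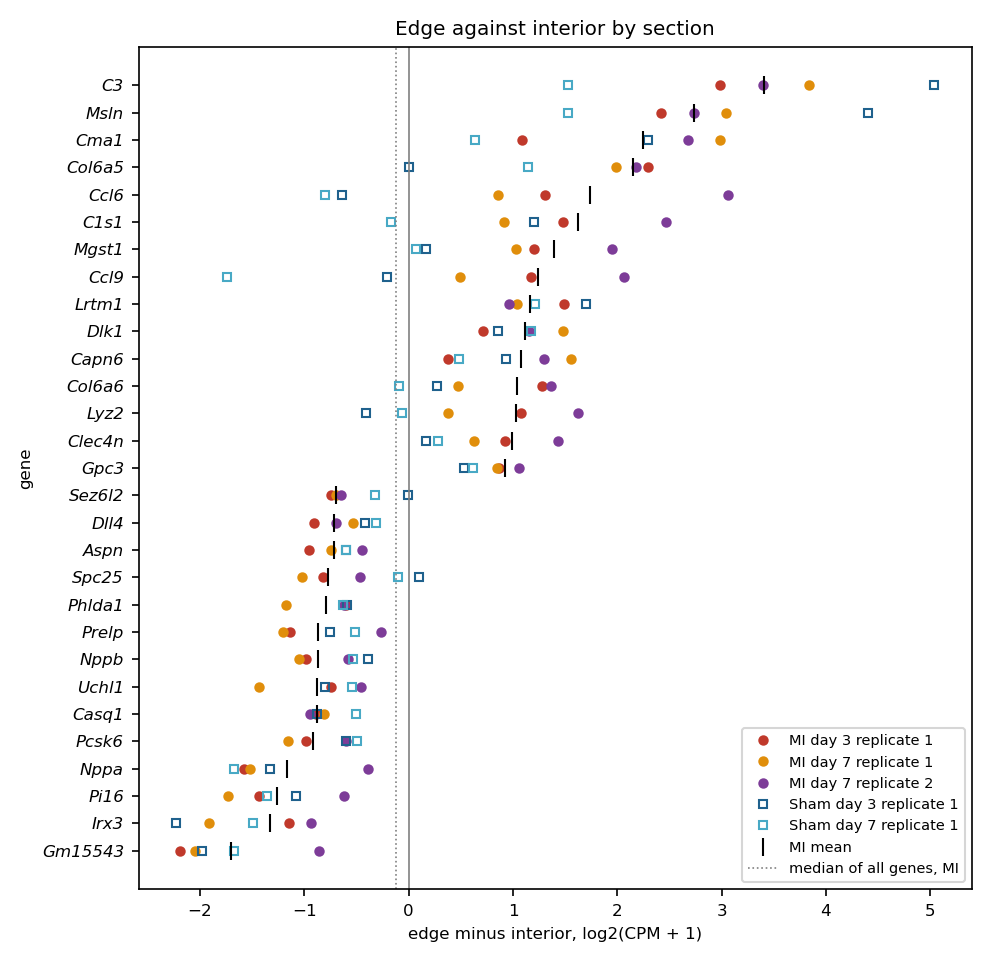
Edge minus interior on the log2(CPM + 1) scale for the 15 largest rises and 14 of the 15 largest falls, with 1 filled circle for each MI section, 1 open square for each sham section, a bar at the MI mean and a dotted line at the MI median of all genes. The plotted genes have 1 direction in the 3 MI sections, and Ccl6, Ccl9 and Lyz2 lie above 0 in MI and below 0 in both sham sections.

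Genes of the inner wall and the conduction system were among those lower at the edge. Nppa (chromosome 4, 148000722 to 148002079), the atrial natriuretic peptide, was at 3172, 60.3 and 1008 CPM at the edge and at 9479, 175 and 1326 CPM inside (-1.17, SE 0.17, limma adjusted p 0.0101). Irx3 (chromosome 8, 91798525 to 91802067), a homeobox factor of the ventricular conduction system, was at 14.95, 6.52 and 21.8 CPM against 34.2, 27.4 and 42.7 CPM (-1.33, SE 0.17, limma adjusted p 0.00423). Both genes were lower at the edge in every section, by least in MI day 7 replicate 2, the section with the holes. Nppb, the B-type natriuretic peptide, fell by 0.87 (SE 0.09, limma adjusted p 0.00161). Of the 11 atrial, trabecular and conduction genes tested, 3 fell (Nppa, Nppb and Irx3) and 0 rose. In all 3 sections 7 of the 11 were lower, where 37.4% of all genes were. With median-of-ratios scaling 6 of the 11 were, beside 1932 of 12810 genes. The median of the 11 was -0.65 beside -0.12 for all genes, and -0.57 beside -0.00 under median-of-ratios scaling. Without MI day 3, 0 passed in limma, without MI day 7 replicate 2, 7 of 10 did, and with the outer border only 6 of 10 did. Without MI day 7 replicate 1 the median was -0.30. Gja5, the connexin of conduction fibres and arterial endothelium, was at 3.14, 6.49 and 9.25 CPM at the edge and at 14.6, 13.1 and 14.8 CPM inside, with a limma adjusted p of 0.0508.

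The fall of largest size was that of Gm15543 (chromosome 6, 145182275 to 145187630), annotated as an antisense RNA within Casc1. It was at 2.68, 4.97 and 42.2 CPM at the edge and at 15.9, 23.7 and 77.5 CPM inside (-1.70, SE 0.22, limma adjusted p 0.00423). Of the 30 genes given by the naming rule, 16 overlap a gene of the other strand, and whether the counting used strand is not given in the sources used here. Casq1, a calsequestrin that binds calcium in the sarcoplasmic reticulum, fell by 0.88 (SE 0.09, limma adjusted p 0.00182), and the proprotein convertase gene Pcsk6 by 0.91 (limma adjusted p 0.00423). Ankrd1, a stress-responsive gene of cardiomyocytes, fell by 0.55 (limma adjusted p 0.00869). Uchl1, a ubiquitin hydrolase, Phlda1 and Sez6l2 fell by 0.88, 0.80 and 0.70.

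Stromal and vascular genes were found among the falls too. Pi16, a peptidase inhibitor of adventitial fibroblasts that was listed here with outer-layer fibroblast genes, was lower at the edge, at 5.85, 16.3 and 24.5 CPM against 17.6, 56.2 and 38.2 CPM (-1.26, SE 0.18, limma adjusted p 0.00869). It was the 1 member of that list's 10 tested to pass here. Without MI day 3, 0 passed in limma, without MI day 7 replicate 2, 5 were lower, and 4 were lower with interior spots matched on raw UMIs or among cardiomyocyte-scored spots. The small leucine-rich proteoglycan genes Prelp and Aspn fell by 0.87 (limma adjusted p 0.047) and 0.71 (limma adjusted p 0.00461). Dll4, a Notch ligand of arterial and sprouting endothelium, fell by 0.71 (limma adjusted p 0.0361). Of 13 mural genes Acta2 and Myl9, a smooth muscle actin and a regulatory light chain, passed, by -0.39 and -0.49, and under median-of-ratios scaling or without MI day 3, 0 passed in limma. Of the 14 cell cycle genes, 0 passed in limma while 13 were lower in all 3 sections, with a median of -0.37, where 37.4% of all genes were lower in all 3 sections. With median-of-ratios scaling 9 were lower in all 3 sections, as were 1932 of 12810 genes. Without MI day 7 replicate 2, 8 of the 14 passed and were lower. Among spots with a cardiomyocyte score above 0.5, 11 of the 14 passed and were lower, as did 373 of 12605 genes. Spc25, a kinetochore component outside the list, fell by 0.77 (limma adjusted p 0.0454).

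Other lists had few or 0 called genes. They included 15 capillary, 12 endocardial and 20 working cardiomyocyte genes, of which 0 passed in limma, with medians of -0.12, -0.30 and -0.12. For the endocardial list 4 of 12 were lower with the outer border only, and 6 of 12 without MI day 7 replicate 2, the section with the holes (median -0.58). Of the working cardiomyocyte genes, 7 were lower without that section and 9 with interior spots matched on raw UMIs. Of 19 glycolysis and hypoxia genes Hk1, a hexokinase, fell (list median -0.17), and of 12 fetal and stressed cardiomyocyte genes Ankrd1 fell (list median -0.09). The glycolysis count was 7 without MI day 7 replicate 2 or among cardiomyocyte-scored spots, and 0 in limma without either other section or under median-of-ratios scaling. For the fetal list it was 3 without MI day 7 replicate 2, 2 among cardiomyocyte-scored spots and 0 in limma without MI day 3. The 14 immediate early, 9 interferon-stimulated, 3 nerve, 4 nuclear-retained RNA and 3 Nrf family genes had 0 called genes in limma and medians of -0.16, 0.25, -0.48, 0.09 and -0.03. Of these, the interferon median was 0.017 without MI day 7 replicate 2 and 0.44 without MI day 3, and the nerve median was -0.24 without MI day 3. Without MI day 7 replicate 2 the immediate early median was -0.28, with 2 genes lower, and that of the Nrf family was -0.16. The 33 proteasome, 17 antioxidant, 17 fatty acid and 81 ribosomal protein genes had 0 called genes in limma and medians of -0.11, -0.09, -0.10 and 0.06. Ribosomal protein genes were higher in all 3 sections in 31 of 81 cases, beside 740 of 12827 genes (5.77%). Under median-of-ratios scaling, which raised the median of all genes from -0.12 to -0.00, they were so in 80 of 81 cases, beside 2119 of 12810 genes, and 6 of the 81 passed. Few markers of neighbouring tissues could be followed. Of 9 adipose, 7 lung, 10 skeletal muscle and 8 thymus and lymphoid markers, 2, 1, 5 and 3 were in all tables. The lung marker summed to 1.16 to 1.56 CPM at the MI edge. The adipose markers summed to 51.4, 28.1 and 40.9 CPM at the edge and to 52.6, 37.8 and 44.2 CPM inside. The skeletal muscle markers summed to 51.3, 21.1 and 44.7 CPM against 79.8, 34.4 and 81.8 CPM, and Casq1, among them, was the member that passed. Ccl21a, a chemokine of lymphatic endothelium and lymphoid tissue whose copies are near-identical and hard to separate, rose by 1.96 (limma adjusted p 0.00423), at 8.66, 4.19 and 5.07 CPM against 1.65, 0.499 and 0.303 CPM. The part of such tissue in the results was not tested.

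To ask how sharp the rim is, the edge was set against the next layer alone, that is, interior spots that touch an edge spot (62, 87 and 156 spots). Here 70 of 12790 genes were higher (0.547%) and 20 lower (0.156%) in limma, with a median of -0.05 over all genes. C3 rose by 2.65 (SE 0.12, limma adjusted p 9.99e-17), Msln by 2.47 (SE 0.21, limma adjusted p 4.43e-09) and Cma1 by 1.84 (SE 0.23, limma adjusted p 6.61e-06). Igfbp6, a secreted binding protein for insulin-like growth factors, rose by 1.73 (limma adjusted p 2.02e-06), at 23.6, 11.3 and 64.3 CPM at the edge. The same 5 epicardial markers passed as against the whole interior, and 0 fell. Myh11 and Tagln, contractile genes of smooth muscle, were lower at the edge by 0.90 (limma adjusted p 0.00434) and 0.54 (limma adjusted p 0.0103), and with Acta2 and Myl9 they made 4 of 13 mural genes that fell in this comparison. Pi16 fell by 0.89 (limma adjusted p 0.000733). Nppa and Nppb fell by 0.27 and 0.30, and Irx3 and Gm15543 did not pass, with limma adjusted p-values of 0.431 and 0.193. The counts fell to 35 and 3 when MI day 7 replicate 2 was left out, were 133 and 37 when replicate 1 was, and had 58 lower genes when MI day 3 was.

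Between the next layer and all deeper spots, 1 gene of 12808 was higher (0.00781%) and 0 lower (0%) in limma, with 147 and 909 at an unadjusted p below 0.05. The gene was Lrtm1 (1.21, SE 0.13, limma adjusted p 0.00383). Without MI day 7 replicate 2 the counts rose to 41 and 305, and without MI day 3 to 10 and 3. Dlk1 (0.97) and Irx3 (-1.10) each had a limma adjusted p of 0.0728. Spp1, the matrix protein osteopontin, had the largest rise given by the rule (1.77, limma adjusted p 0.128), and its level rested on MI day 3, where it was at 1192 CPM at the edge and 394 CPM inside, with 1.13 and 29.7 CPM at the other edges.

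The layers showed these forms of profile side by side. Averaged over the sections, C3 went from 181 CPM in the outermost layer to 34.4, 14.0, 9.64 and 7.33 CPM in the next 4, and to 15.2 CPM from layer 6 inward. Msln went from 26.3 to 3.67 CPM between layers 1 and 2, and stayed between 2.03 and 4.87 CPM deeper. For both, the step after the first row of spots was the largest. Lrtm1 declined by steps, from 66.0, 58.7, 45.4, 31.4 and 26.4 to 14.1 CPM, and Dlk1 from 56.3 in layer 1 to 13.9 CPM in layer 6 and beyond. In the other direction Irx3 went from 14.4, 19.5, 25.2 and 36.6 CPM through 32.6 to 48.3 CPM. Nppa rose from 1414 to 6231 CPM over the same layers, mostly through MI day 3, while in MI day 7 replicate 2 Nppa was at 1008 CPM in layer 1 and 845 CPM in the deepest layer. Tnnt2 stayed between 4763 and 5314 CPM.

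**Figure D4:**
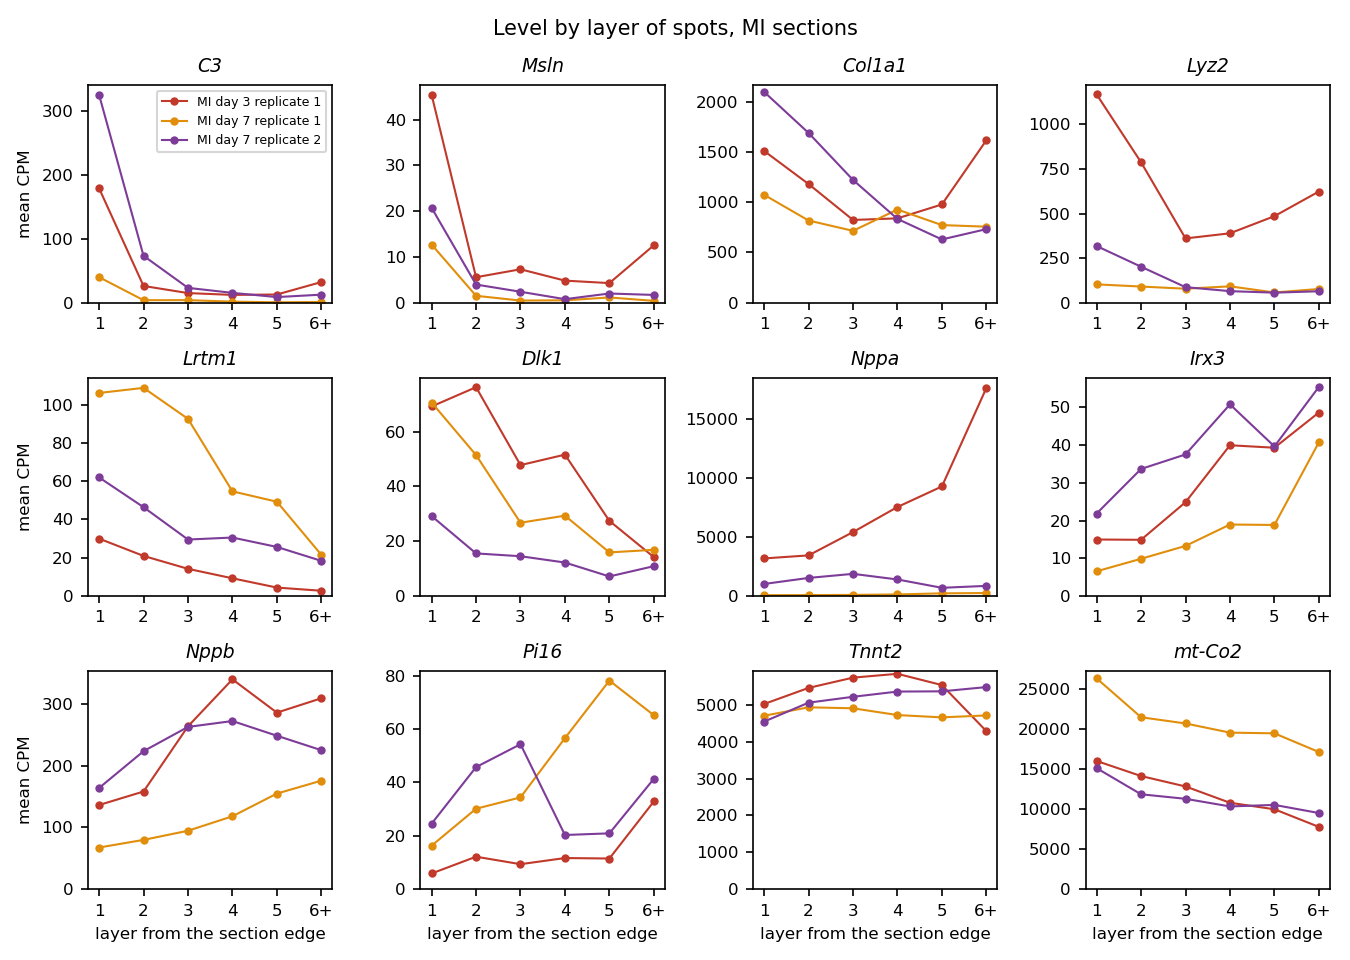
Mean CPM of 12 genes by layer of spots from the section edge (1 is the edge, 6+ is layer 6 and deeper), with 1 line for each MI section. C3 and Msln drop after layer 1, Lrtm1 and Dlk1 decline over several layers, and Irx3 is higher in the deepest layer than in layer 1 in each section.

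Edge spots differed widely among themselves. The edge held 20.3, 14.1 and 19.9% of the edge and interior spots but 67.8, 78.0 and 72.9% of the summed C3 level and 60.2, 76.1 and 69.4% of that of Msln. For Nppa it held 7.87, 5.37 and 15.9%. A value of C3 above 0 was listed in 67.6, 26.8 and 39.1% of edge spots, and in 42.1, 8.32 and 25.2% of interior spots. The highest edge spots reached 1985, 1586 and 4050 CPM, whereas the median edge spot was at 43.0 CPM in MI day 3 and at 0 in both day 7 sections. Spots led by the EPI score, 8, 6 and 13 in number, carried 49.8, 73.4 and 66.9% of the edge level of C3. They carried 16.4, 6.92 and 1.61% of that of Lrtm1. Since the score is drawn from the same values, these shares are a description. In each section C3 was highest in the most exposed spots. Spots with 1 to 3 neighbours had 349, 102 and 656 CPM, those with 4 had 75.2, 15.5 and 279 CPM, and those with 5 had 86.5, 9.25 and 144 CPM. Nppa was at 3190, 2901 and 3412 CPM for 1 to 3, 4 and 5 neighbours in MI day 3, at 64.7, 47.8 and 75.5 CPM in MI day 7 replicate 1, and at 508, 646 and 1697 CPM in MI day 7 replicate 2. It was highest in the least exposed edge spots of each section.

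The rise of C3 and Msln was also found in edge spots scored as myocardium. With a summed cardiomyocyte score above 0.5, C3 was at 77.0, 9.86 and 34.0 CPM at the edge and at 17.4, 1.80 and 14.6 CPM inside, a limma difference of 1.74 with an adjusted p of 1.12e-06. Msln was at 23.5, 4.60 and 5.45 CPM against 6.095, 0.671 and 2.12 CPM (1.53, limma adjusted p 0.00105). Of the 12 epicardial markers, 1 passed here and the list's median was -0.25 beside -0.15 for all genes. The filter by itself leaves out spots with a high EPI score. In the spots kept, 45 genes were higher and 373 lower, and 23 and 32 of them were among the genes called with every spot. When interior spots were matched to edge spots on raw UMIs, 86 were higher and 133 lower.

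MI day 7 replicate 2 allowed a comparison of the outer border (111 spots) with the rim of the holes (45 spots) in a single section, without a replicate and without a test. Msln and Cma1 were at 29.2 and 24.6 CPM on the outer border, at 0 around the holes, and at 2.27 and 1.89 CPM inside. Cma1 was above 0 in 3.21% of all edge spots of this section, so that its border mean rests on few spots and its 0 around the holes cannot be set apart from the interior level. The same holds for Msln, which was above 0 in 11.5% of these edge spots and in 4.47% of interior spots. Edge spots led by the EPI score carried 80.7% of its edge level. C3 was at 415 CPM outside and 103 CPM around the holes, C1s1 at 87.2 and 13.7 CPM, and Lrtm1 at 77.1 and 24.4 CPM. The inner-wall genes went the other way. Nppa was at 484 CPM on the outer border, at 2301 CPM around the holes and at 1326 CPM in the interior. Irx3 was at 10.3, 50.4 and 42.7 CPM, and Gja5 at 3.50, 23.4 and 14.8 CPM. Npr3, a natriuretic peptide receptor of the endocardium, was at 4.08, 32.4 and 9.27 CPM. Col1a1 was high on both, at 1784 and 2874 CPM, as were Hba-a1 (6920 and 5373 CPM) and Lyz2 (322 and 308 CPM). The deposited scores differed likewise, with EPI at 7.93% on the outer border and 2.75% around the holes, and the endocardial score at 1.08 and 11.8%. Restricting the edge to the outer border in all 3 sections gave 73 higher and 140 lower genes in limma, among them the 48 and 34 called with every edge spot.

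**Figure D5:**
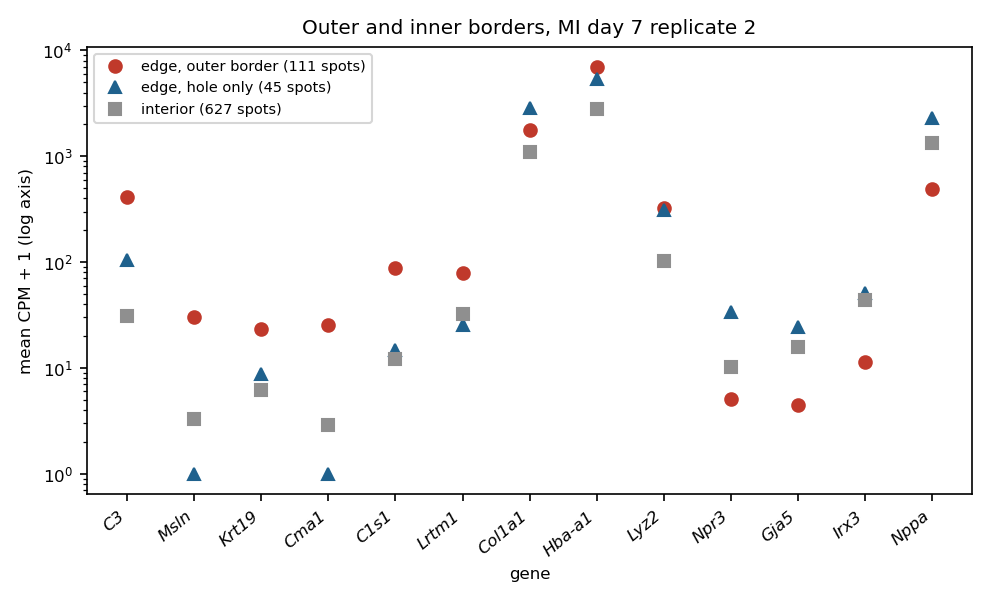
Mean CPM + 1 (log axis) of 13 genes in MI day 7 replicate 2, for edge spots on the outer border (circles), edge spots around the holes (triangles) and interior spots (squares). Msln and Cma1 are highest on the outer border and at 0 around the holes, both resting on few spots, while Nppa, Irx3, Gja5 and Npr3 are highest around the holes.

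To ask whether the rim of infarcted hearts differs from that of sham hearts, the edge difference was compared between the 3 MI and the 2 sham sections. Of 12802 genes limma called 0 higher and 0 lower, and an unadjusted p below 0.05 was reached by 412 higher and 335 lower genes. The difference of every MI section lay above that of both sham sections for 1225 genes (9.57%) and below for 1485 (11.6%). The sham day 3 table holds raw UMIs and the others corrected counts. C3 and Msln were higher at both sham edges, with C3 at 96.4 and 3.24 CPM at the sham edges at day 3 and day 7 against 1.96 and 0.466 CPM inside, and Msln at 22.7 and 2.18 CPM against 0.122 and 0.103 CPM. The 12 epicardial markers summed to 137 CPM at the edge and 92.3 CPM inside in sham day 3, and to 76.1 and 92.6 CPM in sham day 7. In MI the sums were 236, 103 and 198 CPM at the edge and 164, 86.0 and 116 CPM inside. Irx3 and Nppa were lower at both sham edges. For C3 the edge difference was larger in MI by 0.12 (SE 0.57, limma adjusted p 0.988).

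Several macrophage genes had a larger edge difference in MI, without passing. Lyz2 was at 32.0 and 48.2 CPM at the sham edges and at 43.0 and 50.6 CPM inside, and the edge difference in MI exceeded that in sham by 1.27 (limma adjusted p 0.151). For Ccl6 and Ccl9 the excess was 2.46 (limma adjusted p 0.151) and 2.22 (limma adjusted p 0.229), and for Spp1, the lipid receptor gene Trem2 and the leukocyte antigen gene Cd52 it was 1.74, 1.47 and 1.43. None of these passed. Of 19 myeloid and immune genes, 11 had an edge difference above both sham sections in every MI section and 0 below. Over all genes these shares were 9.57 and 11.6%. The median excess of the 19 was 0.76 beside -0.01 for all genes. In the other direction, Ccl21a was at 52.3 and 28.5 CPM at the sham edges (-1.80, limma adjusted p 0.229), and Hba-a1 rose by 1.38 and 1.72 at the sham edges against 0.58, 0.61 and 1.21 in MI. The EPI score was higher at the edge by 1.93 and 0.139 points in sham, below each MI section (two-sided exact permutation test p = 0.2, the smallest that 3 against 2 sections allow).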

How the data were processed

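Processed tables of 5 Visium sections, 3 of MI and 2 of sham hearts, were used. The authors aligned reads with Space Ranger to mm10/GRCm38 (its version is not given in the sources used here), normalized with sctransform in Seurat, and transferred cell type scores from single-nucleus data. For 4 sections, all MI sections among them, the deposited values are corrected counts: they sum per spot to the deposited total of sctransform counts, and were treated as scores, not as a count for a count model. The sham day 3 table holds raw UMI counts as deposited, and the raw UMI total per spot was deposited for every section. Deposited cell type scores are fractions from 0 to 1, printed here as a percent.

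Values were scaled to CPM per spot over the 13711 genes common to all tables (at least 99.8% of each table's total), and averaged by class and section. Total raw UMIs per section were 11396022 to 37492530. Genes with a mean of at least 1 CPM over the 6 profiles were tested on log2(CPM + 1), a scale that understates changes of low genes, with limma (3.58.1, trend and moderated variance) and section as block, which leaves 2 residual degrees of freedom, and with Benjamini-Hochberg adjustment. The block pairs the edge and interior of the same section. Sections are the replicates, spots are not. The comparison with sham used the same model with an interaction. Scripts were tested on simulated data. The members and the 28 gene lists were chosen with earlier results of these data known. Named genes were the 15 largest rises and falls (5 in the other comparisons) among genes past the threshold of 0.05, with 1 direction in all sections and at least 10 CPM, filled from those that did not pass, besides members of the lists. The result for 1 of them is not reported here. Gene positions are from GENCODE M21. Alternatives changed the pseudocount, filter, scaling, gene set, averaging, block, UMI minimum, edge definition and variance trend, matched depth, kept only cardiomyocyte-scored spots, or left out 1 section.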

Additional observations from a re-analysis of the deposited data

Results flagged for a closer look

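Results flagged here are those in which every MI section moved one way and both sham sections the other. The CM4 score was lower at the edge in MI (by 7.36, 10.1 and 3.07 percentage points) and higher at the edge in sham (by 25.6 and 13.5 points). The MI mean minus the sham mean was -26.4 points, with a two-sided exact permutation p of 0.2, the smallest that 3 against 2 sections allow. The same was true of Ccl6, Ccl9 and Lyz2, whose mean edge difference in MI minus that in sham was 2.46, 2.22 and 1.27 on the log2 scale. Their limma adjusted p-values for this difference were 0.151, 0.229 and 0.151, so none passed. The sham day 3 table holds raw UMIs, unlike the others, and the part of that difference in these values was not tested.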

How the results depend on the processing

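For edge against interior the main counts were 48 higher and 34 lower genes, and 740 and 4791 with 1 direction in every section used. A pseudocount of 10 gave 25 and 18, and a filter at 10 CPM 22 and 18, with 346 genes higher in every section. Median-of-ratios scaling gave 100 and 17, with 2119 and 1932 in every section. Leaving mitochondrial and haemoglobin genes out before scaling gave 18 lower genes, with 1429 and 2979 in every section. With no replicate block (no section term) 0 and 0 passed in limma, and 74 and 298 had an unadjusted p below 0.05. An edge of 1 to 4 neighbours gave 108 and 188, the outer border only 73 and 140, interior spots matched on raw UMIs 86 and 133, and spots with a cardiomyocyte score above 0.5 gave 373 lower genes. With no mean-variance trend 3 (C3, Msln and Col6a5) and 0 passed in limma, with 341 and 1482 at an unadjusted p below 0.05. Leaving out each section in turn gave 7 to 109 higher and 0 to 513 lower genes, with 1264 to 2023 higher and 5726 to 6781 lower in every section used.

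Against the next layer, median-of-ratios scaling gave 118 and 11, and leaving out each section gave 35 to 133 higher and 3 to 58 lower genes. Between the next layer and deeper spots, median-of-ratios scaling gave 2 and 2, and leaving out each section 6 to 41 and 0 to 305. For MI against sham, leaving out each section gave 0 to 10 higher genes (10 without MI day 7 replicate 1) and 0 to 10 lower genes (10 without MI day 7 replicate 2). Against the next layer, the CM4 score differed by -1.44 and the CM5 score by -1.60 points, in place of -6.86 and -5.11. The CM1 score differed by 3.74 in place of 16.0 points, and in MI day 3 CM1 and CM4 changed direction, to -3.19 and 0.464. The 30 named genes kept their direction in each alternative except Lyz2, which was at -0.068 in spots with a cardiomyocyte score above 0.5. In those spots 8 other named genes kept their direction but did not pass. Without MI day 3, 24 of the 30 did not pass, and without the variance trend 27. The cause of these changes was not tested. Corrected counts carry no depth of their own, so the precision of low genes in single spots is unknown.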
